A study of Homo sapiens with 4 samples.

Results

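The genes described here are 39 human cytokine, chemokine, NF-kB, adhesion receptor, IRF and STAT genes out of the 20007 protein-coding genes of GENCODE release 44. They were chosen by name, as inflammatory genes that often respond to BET inhibition, and the rule uses no measured value. Each gene was followed through the accessible regions that lay in its gene body or within 10 kb of it. The peaks of 4 ATAC-seq libraries merged into 164301 regions, of which 102534 lay within 10 kb of a protein-coding gene and 163 within 10 kb of these genes. Every gene had at least 1 region and the largest number was 12, at NFKB1. The genes comprised 8 cytokines, 15 chemokines, 5 Rel/NF-kB subunits, 6 NF-kB inhibitors or feedback genes, 2 adhesion receptors, and the group IRF1, STAT3 and SOCS3.

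The cells were pancreatic progenitors (PPs) differentiated from MEL1, an established human embryonic stem cell line, named MEL1 INS GFP/W in the study's methods, which carries a GFP reporter at the insulin gene. All groups grew in EF6, a DMEM-based medium with B27, EGF (50 ng/ml), bFGF (10 ng/ml) and 616452 (10 μM), an inhibitor of the TGF-beta type I receptor. The treated group received 1 μM I-BET151 for 7 days and the controls received DMSO, with 2 libraries in each group and 50000 cells in each library. I-BET151 is a small molecule that occupies the bromodomains of the BET proteins and keeps them from binding acetylated histones. The labels do not say whether the libraries of a group came from separate cultures, so a spread between them may be technical, and all came from 1 cell line. ATAC-seq measures where the transposase Tn5 can cut, and a peak marks a stretch of accessible chromatin.

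NF-kB is a family of dimeric transcription factors held in the cytoplasm by the IkB proteins. Signals from tumour necrosis factor, interleukin 1 or bacterial products destroy IkB, the dimers enter the nucleus, and they switch on cytokine and chemokine genes together with their own inhibitors, NFKBIA and TNFAIP3. BET proteins bind acetylated chromatin at many of these targets. Epithelial cells such as pancreatic progenitors carry the pathway and can secrete chemokines, while several of the genes below are used mainly by immune cells.

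The peak lists differed in length and depth, which touches every comparison below. They held 82568 and 38295 peaks in DMSO replicates 1 and 2, and 84995 and 111324 peaks in I-BET151 replicates 1 and 2. The reads behind them, estimated from the genome-wide background that each list implies, were 38.7 M and 36.6 M in the DMSO libraries and 12.5 M and 16.0 M in the I-BET151 libraries. The median fold enrichment of a peak over its local background was 3.88 and 4.08 in DMSO and 5.56 and 6.03 in I-BET151, so fold values are compared below as percentiles within a list, where 0 stands for no call. Peaks lay at the start of 7, 6, 8 and 8 of 8 progenitor marker genes in the order DMSO 1, DMSO 2, I-BET151 1 and I-BET151 2. Among blood and immune cell markers, CD68 had such a peak in every list and PTPRC, CD3E, CD14 and SPI1 had none. Of 6 fibroblast markers 3, 3, 5 and 5 had a peak, and of 4 endothelial markers 1, 0, 1 and 2. Their part in the results was not tested.

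The promoters of many of these genes hold the DNA element for which NF-kB is named. The NF-kB consensus, searched on both strands, lay in the 150 bases before the start of 20 of the 39 genes (51.3%), against 6.89% of all 20007 promoters. It was present in 10 of 15 chemokine promoters, 4 of 5 Rel/NF-kB promoters, 3 of 6 inhibitor promoters and 1 of 8 cytokine promoters. The genes are textbook NF-kB targets, so the share describes how they were chosen. The 30 bases around the element are shown for 12 genes, read from hg38 on the strand of the gene, with the matching bases in capitals, because the same element stands in promoters that the peak lists treat very differently. A run of 11 capitals holds overlapping matches, and TNFAIP3 has a pair of separate ones. Each label gives the pattern of the gene's start, not of the element itself. At NFKB2 the element lies 21 bases before the start, close to the summit of a separate region called in the I-BET151 lists alone. At NFKBIA and NFKB1 the summit of the start region lay 638 and 595 bases downstream of the start, on the far side from the element.
Start region called in all 4 lists, NFKBIA: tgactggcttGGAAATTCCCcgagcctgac
TNFAIP3: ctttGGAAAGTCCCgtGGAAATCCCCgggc
NFKB1: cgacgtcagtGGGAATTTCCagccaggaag
NFKB2: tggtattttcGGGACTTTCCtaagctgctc
REL: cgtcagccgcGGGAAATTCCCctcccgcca
CXCL3: ctggagctccGGGAATTTCCCtggcccggc
Start region called in both I-BET151 lists but no DMSO list, CXCL1: ctggaactccGGGAATTTCCCtggcccggg
CXCL5: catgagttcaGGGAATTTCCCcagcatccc
IL6: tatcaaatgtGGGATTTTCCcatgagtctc
Start region called in 3 lists, CXCL2: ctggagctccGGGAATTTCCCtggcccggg
No region within 1 kb of the start in any list, CXCL6: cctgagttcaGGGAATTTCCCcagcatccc
CCL2: tatcactcatGGAAGATCCCtcctcctgct

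The stretches lie on hg38 at chr14:35404811-35404840 (minus strand), chr6:137867188-137867217 (plus), chr4:102501300-102501329 (plus), chr10:102395674-102395703 (plus), chr2:60881517-60881546 (plus), chr4:74038749-74038778 (minus), chr4:73869304-73869333 (plus), chr4:73998749-73998778 (minus), chr7:22727117-22727146 (plus), chr4:74099254-74099283 (minus), chr4:73836578-73836607 (plus) and chr17:34255191-34255220 (plus). CXCL1, CXCL2, CXCL3, CXCL5 and CXCL6 carried the identical 11-base match. Windows of the neighbouring chemokine genes also shared longer runs, the longest being 42 bases between CXCL1 and CXCL2, 37 between CXCL2 and CXCL3 and 45 between CXCL5 and CXCL6, and how reads that fit several copies were placed is not given in the sources used here. Among the 16 promoters called in all 4 lists 8 held a match, as did 3 of the 5 called in the I-BET151 lists alone, 5 of 11 with another pattern and 4 of 7 with no call. The 8 include NFKB2, whose match lay by its separate region in the I-BET151 lists alone.

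The start regions divided the 39 genes by role. A region within 1 kb of the start of the canonical transcript was called in all 4 lists for 16 genes, 41.0% against 53.3% of all protein-coding genes. These were all 5 Rel/NF-kB subunits, 5 of 6 inhibitor or feedback genes, and IRF1, STAT3 and SOCS3, 13 of 14 genes in all, whereas 3 of the 23 cytokine and chemokine genes were among them (CSF2, CXCL3 and CX3CL1). In 5 further genes a region within 1 kb of the start appeared in both I-BET151 lists but no DMSO list (IL6, LIF, CSF1, CXCL1 and CXCL5), 12.8% of the genes against 7.73% over all genes. Each of the 5 encodes a secreted ligand, but genes with a start region in all 4 lists were counted only there. That left out 13 of the 14 Rel/NF-kB, inhibitor or feedback, IRF and STAT genes. NFKB2 was among these and also had a region near its start in the I-BET151 lists alone. IL6 had another region within 1 kb that DMSO replicate 1 contained, so the start was without any DMSO peak at 4 of the 5 (10.3% of the genes, against 6.96% of all genes). The opposite pattern, a region called in both DMSO lists and neither I-BET151 list, was found at the start of no gene, against 0.475% of all genes. Start regions were absent from every list for 7 genes (17.9%, against 26.2% of all genes), namely IL1B, TNF, CSF3, CXCL6, CXCL10, CCL2 and VCAM1.

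IL6 encodes interleukin 6, the cytokine that drives the acute phase response. Its start region (hg38, chr7:22726984-22727407) was not called in either DMSO list and had folds of 3.85 and 3.18 in the I-BET151 lists, at the 9.54 and 4.16 percentiles, from 8 and 10 reads at the summit. A second region, with its summit 650 bases before the start, was called in DMSO replicate 1 (fold 3.45) and I-BET151 replicate 2 (fold 5.02) and in neither other list. Both of these regions near the start were thus weak where they were called. The IL6 locus held 3 regions in all. The other one, not within 1 kb of the start, was called in I-BET151 replicate 1 alone, where it ranked above the start region.

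LIF encodes leukemia inhibitory factor, an IL-6 family cytokine that signals through STAT3. The region 808 bases inside its first intron had folds of 5.87 and 5.94 in the I-BET151 lists and none in DMSO. A further region 2645 bases upstream had folds of 5.81 and 5.10, again in the I-BET151 lists alone, and another, downstream, had 3.59 and 2.50. LIF also had a region 15489 bases downstream of its start that went the other way, with folds of 2.85 and 2.67 in DMSO and no call with I-BET151, at the 6.10 and 2.71 percentiles.

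IL1A, which encodes interleukin 1 alpha, had start regions in single I-BET151 lists, 8 bases before its start in replicate 2 (fold 4.37) and 648 bases before it in replicate 1 (fold 3.64). Its highest region, in all 4 lists at percentiles of 98.1, 94.5, 99.6 and 98.7, lay 19675 bases downstream and 209 bases from the start of CKAP2L.

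CSF1 and CSF2 encode colony-stimulating factors for macrophages and for granulocytes and macrophages. The CSF1 start region had folds of 5.04 and 4.95 in the I-BET151 lists and was absent from the DMSO lists. The CSF2 start region was called in all 4, with folds of 3.32 and 2.90 in DMSO and 5.71 and 7.99 in I-BET151, at percentiles of 23.4, 8.07, 52.4 and 70.9. Both I-BET151 percentiles of CSF2 lay above both DMSO percentiles, but its difference in rank did not pass the test described below (adjusted p = 0.220, limma).

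CXCL1, CXCL2, CXCL3, CXCL5 and CXCL6 encode chemokines that attract neutrophils through CXCR2 and sit in 1 cluster on chromosome 4. The CXCL1 start region (chr4:73868844-73869454) had folds of 5.77 and 9.98 with I-BET151, from 11 and 32 reads, and was absent from both DMSO lists. At CXCL5 (chr4:73998474-73999120) the folds were 5.72 and 6.50, from 10 and 16 reads, again in the I-BET151 lists alone. The neighbours did not share this pattern. At CXCL2 the start region was called in DMSO replicate 2 and both I-BET151 libraries, with folds of 3.94, 5.33 and 7.46. At CXCL3 it was called in all 4, at percentiles of 71.5, 71.0, 62.1 and 93.8, so that the groups overlapped, and at CXCL6 it was called in none. The 150 bases before the start of CXCL1 (hg38, chr4:73869243-73869392, plus strand) are shown with the NF-kB matches in capitals, because they fall inside a region called in the I-BET151 lists alone.
CXCL1: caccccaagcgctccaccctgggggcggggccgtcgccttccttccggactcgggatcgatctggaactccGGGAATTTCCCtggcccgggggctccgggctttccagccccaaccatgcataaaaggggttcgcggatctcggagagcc

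The remaining chemokines had few calls at their starts. CX3CL1, the membrane-bound chemokine fractalkine, had a start region in all 4 lists at percentiles of 35.6, 31.5, 26.8 and 66.5, with overlapping groups. Start regions of CXCL8, CXCL9, CXCL11, CXCL12 and CCL5 were called in a single list, always an I-BET151 list, with folds between 3.64 and 8.56. Of all regions near genes, 8.97% and 21.6% were in I-BET151 replicate 1 or 2 alone. Those in DMSO replicate 1 or 2 alone made up 17.5% and 1.14%. The shares among start regions were not taken. CCL28 had such regions in both I-BET151 lists, in separate places, and CCL20 in DMSO replicate 1 and I-BET151 replicate 2. CXCL12, the ligand of CXCR4, had in addition a region 1720 bases upstream of its start in both I-BET151 lists (folds 6.98 and 7.79) but no DMSO list.

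The 5 Rel/NF-kB genes encode the subunits of the transcription factor itself, and their start regions ranked high in most lists. NFKB1, which encodes p105 and p50, was at percentiles of 87.8 and 80.8 in DMSO and 74.4 and 72.2 in I-BET151. REL was at 89.3, 83.4, 89.3 and 90.3, and RELB at 90.5, 77.8, 91.6 and 92.5, in the same order of libraries. RELA, which encodes the p65 subunit, was lower in DMSO, at 46.6 and 14.8, and stood at 82.1 and 75.4 in I-BET151. NFKB2, which encodes p100 and p52, had an all-list region 1518 bases before its start at 69.7, 46.7, 85.9 and 82.4, and a separate region 35 bases before its start in the I-BET151 lists alone (folds 4.78 and 3.52). The I-BET151 values lay above the DMSO values at NFKB2, RELA and RELB, below them at NFKB1, and were not separated at REL, and none of these 5 differences in rank passed the test (adjusted p from 0.142 to 0.861, limma).

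The inhibitor and feedback genes are targets of NF-kB, and NFKBIA and TNFAIP3 among them restrain it. NFKBIA encodes the inhibitor IkB-alpha, and its start region was at percentiles of 62.0, 32.9, 70.8 and 66.4. TNFAIP3 encodes the ubiquitin-editing enzyme A20, and its start region was at 64.1, 52.0, 82.0 and 85.4. BCL3, a nuclear IkB protein, was at 21.0 and 18.9 in DMSO and 73.7 and 79.0 in I-BET151, the widest gap of the group. NFKBIZ, another nuclear IkB protein, was at 94.9, 86.6, 86.0 and 79.0, with I-BET151 below DMSO, and TNFAIP2 was at 74.5, 53.7, 83.9 and 84.4. The start region of BIRC3, which encodes the ubiquitin ligase cIAP2, was called in every list but DMSO replicate 2. None of these start regions passed the test of rank, the smallest adjusted p being 0.0971 at BCL3 (limma). The 150 bases before the start of NFKBIA (hg38, chr14:35404750-35404899, minus strand) are shown with the NF-kB match in capitals. They give an example of an element near a start region that every list contained, with the summit of that region 638 bases downstream of the start.
NFKBIA: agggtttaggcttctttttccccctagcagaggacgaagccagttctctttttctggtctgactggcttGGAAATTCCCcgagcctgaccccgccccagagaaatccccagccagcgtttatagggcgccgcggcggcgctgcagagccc

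IRF1, STAT3 and SOCS3 act beside NF-kB in the interferon and IL-6 responses. STAT3, the transcription factor activated by IL-6 and LIF, had the highest start region of the 39 genes in every list. It stood at percentiles of 97.3 and 96.6 in DMSO and 94.1 and 96.7 in I-BET151. IRF1, an interferon-induced transcription factor, was at 32.9 and 38.5 in DMSO and 85.1 and 89.3 in I-BET151 (rank score difference 1.30 ± 0.42 SE, adjusted p = 0.0608, limma). SOCS3, the inhibitor that STAT3 induces against IL-6 receptor signalling, was at 8.81 and 9.01 in DMSO and 45.6 and 74.8 in I-BET151 (difference 1.12 ± 0.47 SE, adjusted p = 0.138, limma). For IRF1 and SOCS3 the groups did not overlap, although neither passed the test. GENCODE gives IRF1 a gene span of 68280 bases, far beyond its canonical transcript, so its locus reaches farther than those of its neighbours.

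Over the whole loci, 23 of the 163 regions appeared in both I-BET151 lists but no DMSO list, 14.1% against 16.3% of all regions near protein-coding genes. The opposite pattern, both DMSO lists and neither I-BET151 list, was found at 4 regions, 2.45% against 2.29%. All 4 lists shared 32 regions, 19.6% against 18.8%, and 104 regions had another pattern. The shares at these genes were therefore close to those of all genes. Within replicate 1, 47 regions were called with I-BET151 alone, 37 with DMSO alone and 42 in both, and within replicate 2 the counts were 80, 5 and 41, so the asymmetry was larger in the pair that holds the short DMSO replicate 2 list. The regions in I-BET151 alone made up 28.8% in replicate 1 and 49.1% in replicate 2, against 26.5% and 47.3% of regions near all genes, and those in DMSO alone 22.7% and 3.07%, against 26.2% and 3.53%. When each list was shortened to its 38295 strongest peaks by fold, 6 regions were called in the I-BET151 lists alone and 6 in the DMSO lists alone, 8.11% in each direction against 8.67% and 5.81% over all regions near genes.

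The 23 regions in the I-BET151 lists alone were spread over 17 of the 39 genes, and the 4 in the DMSO lists alone over 4 genes. Away from the starts, CCL28, a mucosal chemokine, had such a region in intron 1 (folds 5.20 and 7.55), and STAT3 had one in intron 1 (5.45 and 6.75). SOCS3 had one 5745 bases upstream (6.08 and 5.69), NFKB1 one in intron 5 (4.55 and 6.36), RELB one in intron 4 (5.72 and 8.34) and VCAM1 one in exon 3 (3.31 and 5.20). These folds rest on 7 to 24 reads at the summit. In 30 of the 163 regions the nearest gene start belonged to another gene, and in bulk cells a change in every cell and a change in the share of cells that carry a peak cannot be told apart.

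**Figure D1:**
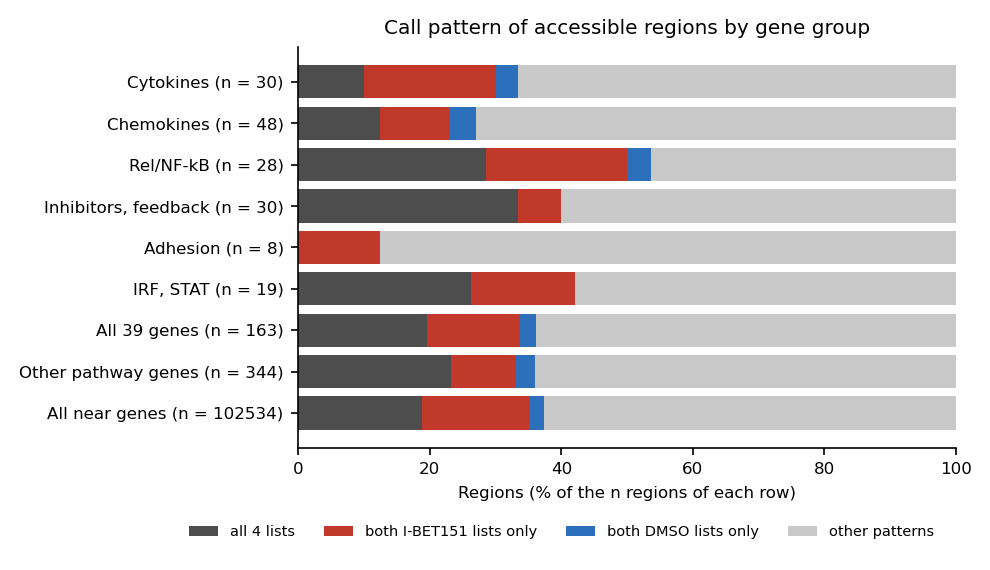
Share of regions (% of the n regions of each row) called in all 4 lists, in both I-BET151 lists only, in both DMSO lists only, or in another pattern, for the 6 gene groups, the 39 genes, the 49 other pathway genes and all regions near protein-coding genes. The bars of the 39 genes (14.1% in the I-BET151 lists only) and of all genes (16.3%) have nearly the same composition.

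The regions that kept their pattern in lists of equal length lay away from the starts. In the I-BET151 lists alone were a region 8630 bases upstream of NFKBIA (folds 8.91 and 7.71), a region 10127 bases downstream of the RELA start (7.04 and 10.99), a region in intron 2 of TNFAIP3 (6.37 and 8.40), the region upstream of CXCL12, and a region downstream of TNF nearest to the start of LTB, another cytokine gene of the TNF family (6.15 and 9.28). The sixth lay 9318 bases upstream of LIF (6.03 and 7.56) and had another pattern in the full lists. None of the 5 start regions called in the I-BET151 lists alone, nor the separate region near the NFKB2 start, was still so called. IL6, CSF1 and CXCL5 then had no peak within 1 kb of the start in any list, and were among 17 such genes (43.6%, against 38.05% of all genes). Start regions in all 4 lists remained at 10 genes (25.6%, against 40.4% of all genes). RELA, BCL3, IRF1, SOCS3, CSF2 and CX3CL1 were no longer among them. In the DMSO lists alone were regions at the chemokine genes CCL5, CCL28, CCL20 and CXCL2, the last with 2 regions, and a region in intron 9 of RELB. Of these 6, the regions at CCL5, CCL28 and RELB had the same pattern in the full lists, the CCL20 region was in all 4 full lists, and the CXCL2 regions had another pattern.

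TNFAIP3 and CCL5 give an example of each direction. The intron 2 region of TNFAIP3 (chr6:137873318-137873691) was absent from the DMSO lists and stood at the 62.9 and 74.3 percentiles with I-BET151. The region 10235 bases upstream of CCL5, a chemokine for T cells and monocytes, stood at the 85.6 and 22.5 percentiles in DMSO (folds 5.58 and 3.31, chr17:35890092-35890708) and was absent with I-BET151. Within 100 bases of the summit both held the NF-kB consensus, as did 28 of all 163 regions (17.2%) against 5.52% of regions near any gene. It was found in 5 of the 23 regions called in the I-BET151 lists alone, 1 of the 4 called in the DMSO lists alone and 4 of the 32 in all lists. Over all regions near genes the shares of these 3 patterns were 5.1%, 7.9% and 7.0%. As at the promoters, the higher shares describe how the genes were chosen. The windows are shown on the plus strand of hg38 with the matches in capitals, TNFAIP3 at chr6:137873451-137873651 and CCL5 at chr17:35890495-35890695.
TNFAIP3 intron 2: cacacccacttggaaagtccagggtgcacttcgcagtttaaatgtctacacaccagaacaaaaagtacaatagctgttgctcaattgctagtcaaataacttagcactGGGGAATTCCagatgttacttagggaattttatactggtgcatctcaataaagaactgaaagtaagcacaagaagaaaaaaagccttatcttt
CCL5 upstream: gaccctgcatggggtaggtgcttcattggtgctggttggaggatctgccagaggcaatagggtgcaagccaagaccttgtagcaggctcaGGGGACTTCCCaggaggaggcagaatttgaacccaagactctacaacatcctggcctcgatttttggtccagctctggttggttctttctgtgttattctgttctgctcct

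Other elements were described in the same windows. The AP-1 element TGANTCA lay in 11 of the 163 regions (6.75%, against 10.3% of regions near any gene) and the STAT element TTCNNNGAA in 18 (11.0% against 5.89%). The interferon response element was found in 3 regions and the CTCF consensus in 3 (1.84% each, against 2.15% and 1.87%). Of the 23 regions called in the I-BET151 lists alone, 0 held the STAT element (6.63% of all such regions near genes) and 0 the interferon response element (2.5%). The AP-1 element was in 1 (9.35%) and the CTCF consensus in 1 (4.30%). These small counts were not tested. A match describes letters, not binding.

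**Figure D2:**
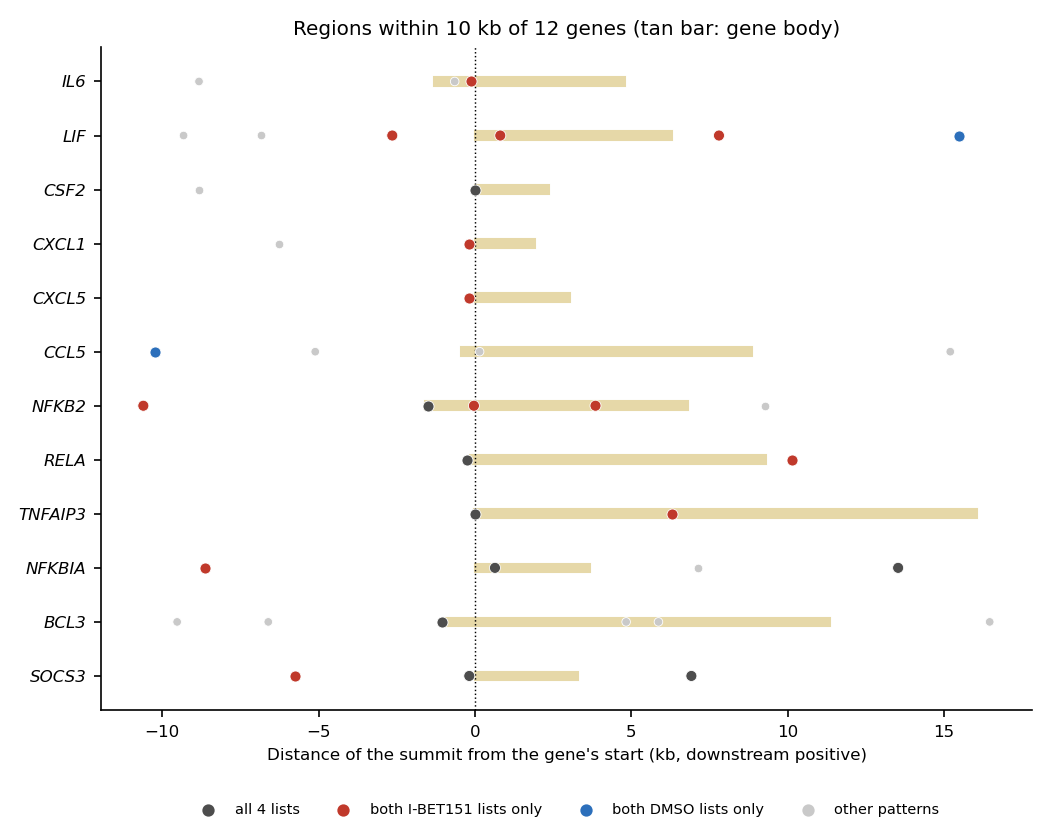
Position of the summit of each region relative to the start of the gene (kb, downstream positive) at 12 loci, coloured by call pattern, with the gene body as a tan bar. Regions called in both I-BET151 lists only (red) lie at the start of IL6, LIF, CXCL1, CXCL5 and NFKB2 and away from it at RELA, TNFAIP3, NFKBIA and SOCS3, whose starts were called in all 4 lists (dark grey).

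Change in rank was tested for the 25627 regions called in all 4 lists, with limma on normal scores of the rank by fold. Over all of them 4.18% rose and 2.81% fell in rank with I-BET151 at an adjusted p under 0.05. Of the 163 regions, 32 could be tested, at 22 genes, of which 2 rose and 1 fell (unadjusted p under 0.05 for 8 upward and 4 downward). The other 17 genes, 15 cytokine and chemokine genes and both adhesion receptors, had no region in all 4 lists. The regions that passed were not at the start of any of the 39 genes.

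The larger of the rises lay in the CXCL9 locus but 67 bases from the start of SDAD1, a gene of ribosome assembly. Its folds were 4.10 and 3.78 in DMSO and 16.9 and 14.1 in I-BET151, at percentiles of 57.3, 40.5, 99.7 and 96.5, with no overlap of the groups (rank score difference 2.41 ± 0.40 SE, adjusted p = 0.00206, limma). The second lay downstream of RELB, 68 bases from the start of CLASRP, which encodes a splicing regulator, with folds of 3.91 and 4.66 against 10.4 and 16.6 (1.57 ± 0.43 SE, adjusted p = 0.0304, limma). The RELB call was lost without DMSO replicate 1 (adjusted p = 0.311), without I-BET151 replicate 2 (0.133), when ranks followed -log10 p (0.184) and with scaled pileup (0.529). The SDAD1 call held without any 1 library and was lost with scaled pileup (adjusted p = 0.0737, limma). Both regions belong to neighbours of the inflammatory genes.

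The region that fell lay 13528 bases downstream of the start of NFKBIA, its own nearest start. Its folds were 7.50 and 5.39 in DMSO and 4.13 and 7.71 in I-BET151, and the percentiles fell from 95.4 and 76.9 to 14.8 and 68.4 (rank score difference -2.06 ± 0.45 SE, adjusted p = 0.0112, limma). The 2 I-BET151 libraries stood far apart here, with 9 and 24 reads at the summit, against 38 and 29 in DMSO. The call was lost without DMSO replicate 1 (adjusted p = 0.162, limma). NFKBIA thus had a region in the I-BET151 lists alone on its upstream side, a start region whose difference in rank did not pass the test, and a region lower in rank downstream.

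To compare whole loci, a locus score was taken as the mean percentile over the regions of a gene in each library. Both I-BET151 scores lay above both DMSO scores at 22 of the 39 genes (56.4%, against 50.9% of all genes with a region), and both lay below at 1 gene, CCL5 (2.56% against 3.68%). The median difference between I-BET151 and DMSO was 15.4 percentile points, against 10.8 over all genes, and it was 4.71 in replicate 1 and 25.1 in replicate 2 (all genes 1.66 and 20.0). With 2 libraries a group, an exact permutation test on 1 gene cannot go below p = 0.333, so single genes are described without a test. In lists of equal length the median difference was -1.17 (all genes -0.595), so the direction of the median depended on list length. In those lists 13 of 32 genes lay above (40.6%, against 23.8% of all genes) and 9 below. The share of all genes below was not taken there, so the 9 have no comparison.

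**Figure D3:**
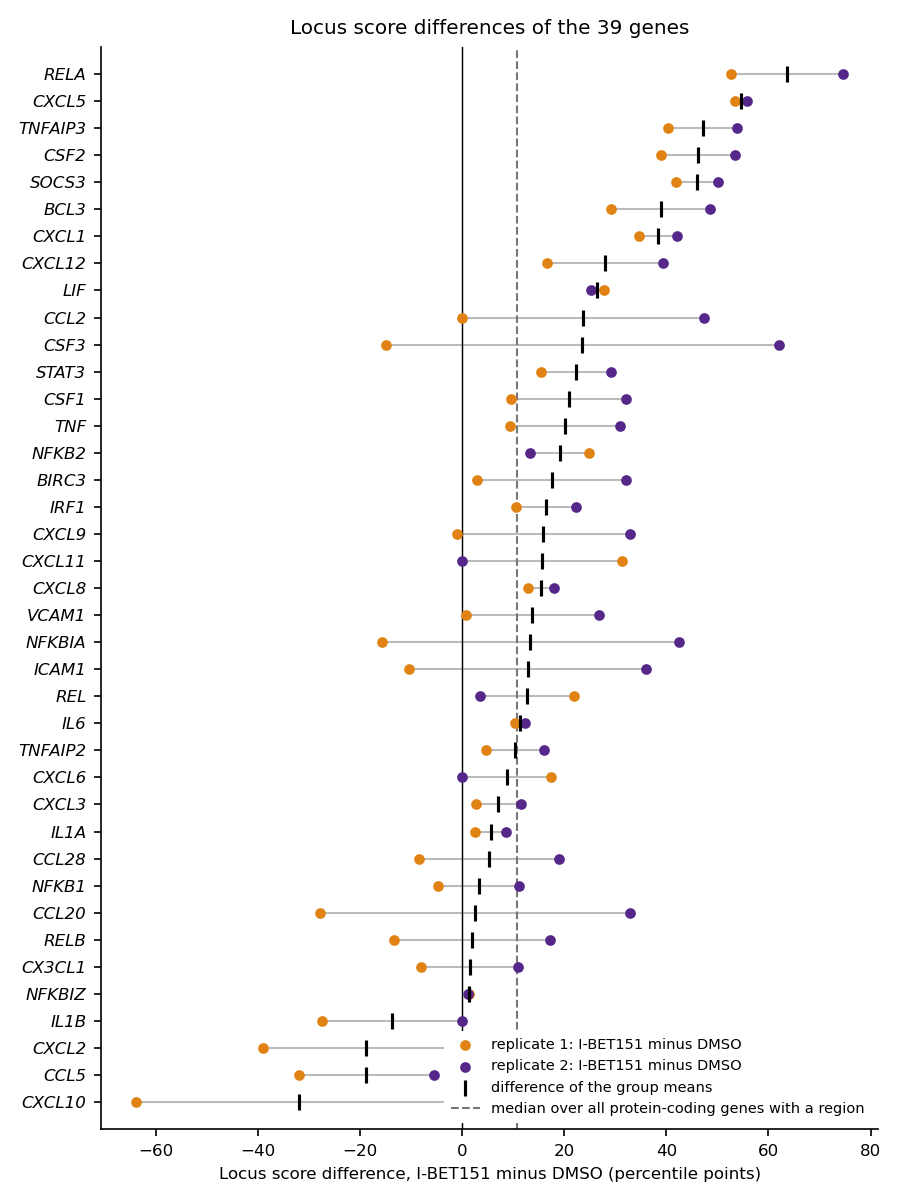
Difference in locus score between I-BET151 and DMSO (percentile points) for each of the 39 genes within replicate 1 (orange), within replicate 2 (purple) and between the group means (black bar), beside the median over all genes (10.8, dashed). RELA, CXCL5, TNFAIP3, CSF2 and SOCS3 lie highest, and CXCL10, CCL5, CXCL2 and IL1B are the 4 genes whose mean difference is below 0.

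The 5 genes with the highest differences were drawn from 5 roles. RELA scored 23.3 and 7.40 in DMSO and 75.9 and 82.0 in I-BET151, a difference of 63.6. CXCL5 scored 0 in both DMSO libraries and 53.5 and 55.7 in I-BET151, from its single region. TNFAIP3 scored 32.0, 26.0, 72.4 and 79.8. CSF2 scored 11.7, 7.59, 50.6 and 61.0, and SOCS3 scored 18.6, 16.1, 60.5 and 66.1. In each of these 5 the gap between the groups was wider than the spread within them, and each had 3 regions or fewer, so that 1 region could set the score. In lists of equal length the differences were 43.4 at RELA, 21.5 at TNFAIP3, 12.4 at SOCS3 and 0.086 at CSF2, and CXCL5 had no peak left.

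At the other end, the scores of 4 genes were lower on average with I-BET151. CXCL10, an interferon-induced chemokine, had 1 region, called in DMSO replicate 1 alone, so its score of 63.9 there stood against 0 in the other libraries. CCL5 scored 33.5 and 5.63 in DMSO and 1.50 and 0 in I-BET151, the only gene whose I-BET151 scores lay below both DMSO scores. CXCL2 scored 54.7 and 44.7 in DMSO and 15.7 and 46.2 in I-BET151, and IL1B, which encodes interleukin 1 beta, scored 33.3, 0, 5.81 and 0. NFKBIZ was next in order, with 35.7, 32.4, 37.1 and 33.5, a difference of 1.28. Except at CCL5, the groups overlapped at all of these genes.

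By role, the I-BET151 scores lay above the DMSO scores at 6 of 8 cytokine genes, 5 of 15 chemokine genes, 3 of 5 Rel/NF-kB genes, 4 of 6 inhibitor or feedback genes, 1 of 2 adhesion receptor genes, and IRF1, STAT3 and SOCS3. The median difference was 20.5 percentile points for the cytokines and 8.71 for the chemokines. VCAM1 and ICAM1 encode the endothelial ligands for leukocyte integrins. VCAM1 was called in neither DMSO list and ICAM1 had overlapping scores, 10.4 and 3.77 in DMSO and 0 and 39.9 in I-BET151. The difference between the roles was not tested.

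The pathway around these genes was read from 49 further genes, 18 receptors, 23 adaptors and kinases and 8 inhibitors. Their I-BET151 scores lay above both DMSO scores at 16 genes (32.7%, against 50.9% of all genes) and below at none, with a median difference of 6.58 percentile points against 10.8. Of their 344 regions 34 were called in the I-BET151 lists alone (9.88%, against 16.3% near all genes) and 10 in the DMSO lists alone (2.91% against 2.29%). A start region was called in all 4 lists at 33 of the 49 (67.3%, against 53.3%). TNFRSF1A, the main receptor for tumour necrosis factor, its adaptor TRADD and TRAF5 had a start region in the I-BET151 lists alone (6.12% of the 49, against 7.73% of all genes). TRAF3, a restraint on the non-canonical pathway, had a start region in the DMSO lists alone (2.04%, against 0.475%). Beside it was another peak within 1 kb of the TRAF3 start in I-BET151 replicate 2. TNFRSF1A scored 25.0 and 26.6 in DMSO and 37.2 and 60.8 in I-BET151, and TRADD scored 0 in both DMSO libraries and 30.6 and 31.1 in I-BET151.

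Of the 80 regions of these 49 genes that were in all 4 lists, 1 rose and 2 fell in rank by the same test. The rise was 11020 bases upstream of CXCR4, the CXCL12 receptor, with folds of 4.03, 3.41, 10.1 and 11.8 (rank score difference 1.41 ± 0.41 SE, adjusted p = 0.0378, limma). The falls were 2239 bases from the TLR4 start (folds 5.18, 5.15, 5.26 and 6.02, adjusted p = 0.0483, limma) and 50917 bases upstream of TAB3 (folds 6.98, 6.49, 7.25 and 9.02, adjusted p = 0.0498, limma). In both the rank within the list fell while the fold itself did not. At the 39 genes 2 of 32 such regions rose and 1 fell. Over all regions in all 4 lists 4.18% rose and 2.81% fell, and the small counts of the 2 gene sets were not tested against these shares.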

How the data were processed

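ATAC-seq peak lists of 4 libraries were used, 2 with DMSO and 2 with I-BET151, grouped by their labels. Alignment to hg38 was done by the authors with Bowtie2 (2.2.5), who left out duplicate and mitochondrial reads, and ran MACS2 (2.1.2) on each library separately, versions being those in the submitters' processing notes. The deposited lists give each peak a fold enrichment (the ratio of its summit pileup to the local background), −log10 of the p-value and q-value, and a display score, which was not used. The weakest deposited peaks have a q-value near 0.05, whereas the threshold in the methods was 1e-05 on the p-value. Peaks sharing 1 bp were merged (Python 3.11.15, pandas 2.3.3). Ranks of regions in all 4 lists were turned into normal scores and tested with limma (3.58.1, trended variance, Benjamini-Hochberg adjusted p under 0.05), which was tested on simulated data. Reads at the summit were solved from the deposited fold and −log10 p. Fold values depend on depth and on the background of each library, which is why ranks were compared. The replicate numbers are in the labels, which do not say that they pair libraries.

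Genes and starts are from GENCODE release 44 (canonical transcripts), and sequence is from hg38. The members and lists were chosen with earlier results of these data known. Named in full were genes with a region moved in rank, a start region in all 4 lists, a region gained or lost within 3 kb of the start, and the 5 highest and 5 lowest locus score differences, with all others as counts. Alternatives were stricter thresholds, lists of equal length, 50% overlap, ranks by −log10 p, other windows, a replicate block and leaving out each library. Scaled pileup and a crossed block were added after seeing the data. The overlap alternative joined peaks only where they shared 50% of the shorter peak. One further marker of the blood and immune list is not reported here.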

Additional observations from a re-analysis of the deposited data

How the results depend on the processing

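The main counts were 23 regions in the I-BET151 lists alone, 4 in the DMSO lists alone, 2 moved up and 1 down in rank, 22 genes above and 1 below, and a median locus difference of 15.4. Requiring −log10 p of at least 10 gave 15, 0, 2 and 0 regions (limma, unadjusted p under 0.05 for 5 up and 2 down), with no gene below. The 15 made up 17.6% of the regions, against 22.9% near all genes. Genes above then made up 56.25%, against 69.6% of all genes, and the median difference was 20.9, against 21.2. With −log10 p of at least 5, 51.3% of the genes lay above, against 52.9% of all genes, and the median was 15.8, against 11.8. Lists of equal length gave 6 regions in the I-BET151 lists alone, 0 moved down in rank (limma, unadjusted p under 0.05 for 2 down), 13 genes above, 9 below and a median of -1.17, and the difference turned negative at 12 of 32 genes (-41.8 to -2.59), of which CXCL3 (-5.75), REL (-6.13) and STAT3 (-6.81) had groups that did not overlap in the full lists. A window of 50 kb gave 56, 19, 9 and 2 regions (13.8% in the I-BET151 and 4.68% in the DMSO lists alone, against 16.2% and 2.52% near all genes), no gene below and 5 changes of sign. Regions within 3 kb of the start gave 8 and 0 by call, 0 moved in either direction by limma (unadjusted p under 0.05 for 4 up and 2 down), 2 genes below, and 7 changes of sign (-11.0 to 3.00), among them CCL5 (3.00), TNF (-7.16) and STAT3 (-0.69), whose groups had not overlapped. Ranking by −log10 p left 1 region moved up, as did scaled pileup.

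Leaving out each library in turn gave 27 to 59 regions in the I-BET151 lists alone, 4 to 22 in the DMSO lists alone (22 without DMSO replicate 2), 1 to 3 moved up, 0 to 2 moved down, a median of 9.50 to 26.7, 22 to 31 genes above and 1 to 5 below, a lone library being assumed to vary like the others. The count of 59 came without I-BET151 replicate 1 (41.3%, against 41.7% near all genes) and 44 without I-BET151 replicate 2 (34.1% against 33.4%). Without DMSO replicate 1 there were 33 (22.6% against 25.9%) and without DMSO replicate 2 there were 27 (16.6% against 17.6%). The 22 in the DMSO lists alone were 13.5%, against 20.1% near all genes. The genes above made up 76.3% without DMSO replicate 1 (84.0% of all genes) and 56.4% without DMSO replicate 2 (51.5%). They made up 83.8% without I-BET151 replicate 1 (71.7%) and 65.8% without I-BET151 replicate 2 (55.6%). The share of all genes below was not taken in any alternative. Between 1 and 7 genes changed sign. A replicate block gave 3 up and 1 down. Same-numbered libraries deviated in opposite directions (r = -0.143 across 25627 regions, which are not independent replicates), and a crossed block gave 5 up and 1 down. The cause of these changes was not tested. Peaks of about 10 reads limit the weakest calls.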
